A study of Mus musculus with 4 samples.

Results

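In the RNA-seq of mouse intestinal crypts, 10 genes of the angiomotin and Hippo-YAP system were followed: Amotl1, Amotl2, Amot, Yap1, Wwtr1, Lats1, Lats2, Tead1, Tead2 and Tead3. They were chosen by pathway around Amotl1, which stood among the largest rises after CREPT loss in these same libraries, so their differences between the groups are a description: the call used below was made on the values that prompted their choice and supports nothing about them. All 10 had a row among the 53845 genes of the count table and all 10 passed the filter on low counts, as did 17504 genes in all. Crypts came from C57BL/6 mice, with 2 wild-type (WT) libraries and 2 libraries of Vil-CREPTKO mice, in which Cre recombinase under the villin promoter acts on CREPT flox/flox alleles. CREPT is the product of Rprd1b and binds RNA polymerase II. The villin promoter is active in the gut epithelium and not in the other cells of the gut wall, and since such mice were born below the expected ratio the sampled animals were survivors. Mice were 6 to 8 weeks old and of both sexes, with neither given per library. The study also sequenced X-ray irradiated intestines, but the titles of these libraries name no irradiation. The breeding scheme crossed Villin-cre; CREPT fl/fl with CREPT fl/fl mice, from which WT offspring are floxed and lack Cre, while the labels of these libraries say only wildtype.

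In the Hippo pathway a kinase cascade ends in LATS1 and LATS2, which phosphorylate the coactivators YAP (Yap1) and TAZ (Wwtr1) and keep them out of the nucleus. YAP and TAZ that reach the nucleus bind DNA through the TEAD factors. The angiomotins are scaffold proteins of tight junctions and of the actin cortex that bind YAP directly and hold it in the cytoplasm. In the intestine YAP is best known for its part in the regrowth of crypts after injury.

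The sequences before the starts of Amotl1 and Tead3 are shown because these were the members that passed the call described below. Both were read from RefSeq (GRCm38.p6) on the gene's own strand, 5′ to 3′, within the 250 bases before a start, and trimmed to bases outside every annotated exon. Capitals mark matches to the TEAD motif GGAATG or its reverse complement CATTCC. The Amotl1 stretch, chr9:14615007-14615200 on the minus strand, lies in an intron of longer Amotl1 transcripts that start farther upstream. The Tead3 stretch is chr17:28350818-28351055, also on the minus strand.
Amotl1: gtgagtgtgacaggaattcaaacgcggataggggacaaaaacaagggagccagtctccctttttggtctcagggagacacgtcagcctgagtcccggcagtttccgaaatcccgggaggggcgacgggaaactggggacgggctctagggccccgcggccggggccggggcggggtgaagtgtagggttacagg
Tead3: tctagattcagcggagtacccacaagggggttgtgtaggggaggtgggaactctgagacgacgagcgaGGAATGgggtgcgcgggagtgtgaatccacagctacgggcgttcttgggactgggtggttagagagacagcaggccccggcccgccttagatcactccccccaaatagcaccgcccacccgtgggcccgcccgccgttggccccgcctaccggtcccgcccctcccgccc
The Amotl1 window of 250 bases held 0 matches, and the Tead3 window held 1, at 182 bases before the start. The windows of the other Tead3 starts, farther downstream, held 2 matches in exonic bases and 0 matches. RefSeq gave windows for 9 of the 10 members (not Tead1), and 4 of the 9 held the motif in at least 1 window: Amotl2, Yap1, Wwtr1 and Tead3. The motif was found in a window of 14.4% of the 27025 genes with one. These are matches of letters and say nothing of binding.

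Total counts per library were 47241049 to 49369315, and 1 count was worth 0.0196 to 0.023 CPM (counts-per-million, after TMM scaling). Rprd1b was at 60.5 and 61.6 CPM in the WT libraries and at 26.3 and 29.0 CPM in the Vil-CREPTKO libraries. Its RNA was thus lower in both, at 45.3% of WT in the means. In the floxed allele loxP sites flank exon 3 only, while the counts cover the whole gene. They therefore do not measure how complete the deletion was. Crypt epithelium markers summed to 10106 to 11671 CPM and villus enterocyte markers to 10034 to 17562 CPM, with all 8 and all 6 genes detected. The preparations thus held villus RNA beside crypt RNA. The crypt epithelium list holds the general epithelial genes Epcam, Krt8, Vil1 and Cdx2 beside Lgr5, Olfm4, Mki67 and Lyz1. Its sum therefore does not measure crypt RNA against villus RNA. Immune markers reached 123 to 208 CPM. Smooth muscle, endothelial and enteric glia lists summed to under 4 CPM in every library, and in them 6 of 6, 5 of 6 and 4 of 4 genes stayed below 1 CPM, with the endothelial Emcn and the glial Sox10 at 0 throughout. The fibroblast list was uneven: replicates 1 and 2 gave 6.27 and 7.23 CPM for WT but 18.5 and 3.73 CPM for Vil-CREPTKO. WT replicate 2 held 42463 Xist counts and 0 Y-linked counts, while the other 3 libraries held 13 to 26 Xist counts and 7126 to 7553 Y-linked counts. Sex was thus mixed within WT and not balanced between the groups, and its part in the member values was not tested. In such bulk RNA, fewer cells of a type and less RNA per cell cannot be told apart.

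**Figure D1:**
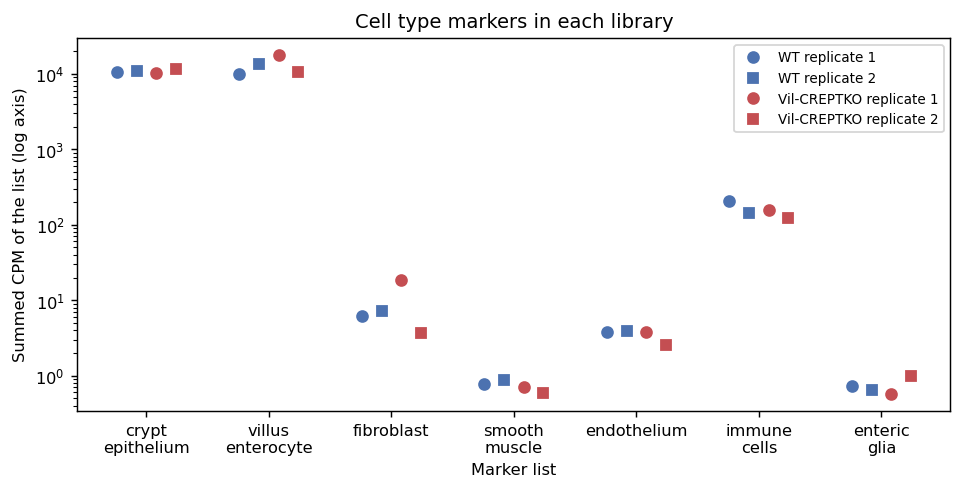
Summed CPM of each cell type marker list (log axis) in the 4 libraries, with circles for replicate 1 and squares for replicate 2. Fibroblast markers were highest in Vil-CREPTKO replicate 1 (18.5 CPM) and lowest in Vil-CREPTKO replicate 2 (3.73 CPM). The crypt epithelium list, which includes general epithelial genes, kept to 10106 to 11671 CPM.

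A gene was called when the adjusted p of the edgeR fit was under 0.05 and the log2 fold change beyond 1 in either direction. Of the 10 members, 1 was called higher (Amotl1) and 1 lower (Tead3). Over all genes tested, 0.297% were called higher and 1.34% lower. Since this contrast chose the members, these calls describe them and are no test of them, and nothing is read from their count. The groups did not overlap in CPM for 4 members (Amotl1, Wwtr1, Tead1 and Tead3), against 45.1% of all genes tested. Of the 10 log2 fold changes 6 were positive and 4 negative, with a median of 0.042. Within 0.5 of zero lay 7 of the 10, beside 75.7% of all genes tested.

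**Figure D2:**
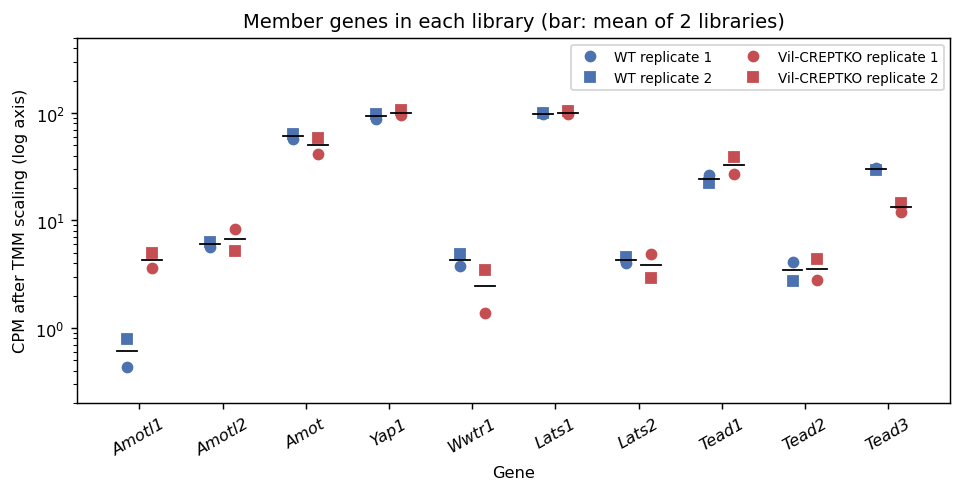
CPM of the 10 member genes (log axis) in the 4 libraries, with WT in blue, Vil-CREPTKO in red, circles for replicate 1, squares for replicate 2 and a black bar at the mean of each group. Amotl1 rose from 0.431 and 0.792 CPM to 3.64 and 4.99 CPM, and Tead3 fell from about 30 CPM to 12.03 and 14.5 CPM.

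Among the angiomotins Amotl1 was called higher, and Amot and Amotl2 were not called. Amotl1 (ENSMUSG00000013076, chromosome 9 from 14541966 to 14645056, minus strand, GRCm38) encodes angiomotin-like 1. It was a low gene in WT, at percentile 16.7 of the genes tested, with 22 counts (0.431 CPM) in replicate 1 and 39 counts (0.792 CPM) in replicate 2. In Vil-CREPTKO it had 158 counts (3.64 CPM) in replicate 1 and 245 counts (4.99 CPM) in replicate 2. Both Vil-CREPTKO libraries were above both WT libraries, and the means of 0.612 ± 0.256 CPM and 4.31 ± 0.957 CPM (SD, n = 2) differed 7.05-fold. The fitted log2 fold change was 2.82 (SE 0.39), where SE is the standard error from the fit. Amotl1 was higher in Vil-CREPTKO replicate 2, the library with the lowest fibroblast marker sum, than in replicate 1, the library with the highest. The fibroblast genes did not all follow their sum. Pdgfrb alone was lower in Vil-CREPTKO replicate 1 (0.92 CPM) than in replicate 2 (1.69 CPM), and the other genes of the list were higher in replicate 1. Smooth muscle (0.713 and 0.591 CPM) and endothelial (3.75 and 2.53 CPM) marker sums of Vil-CREPTKO were below both WT values. The endothelial sum of Vil-CREPTKO replicate 1 was nearly that of WT replicate 1 (3.76 CPM). Enteric glia markers were below both WT values in Vil-CREPTKO replicate 1 (0.575 CPM) and above both in replicate 2 (0.998 CPM). The part of RNA from these cell types in the Amotl1 values was not tested. The 2 noncoding genes annotated inside the Amotl1 locus had 0 counts in all 4 libraries.

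Amot and Amotl2 gave a different picture. Amot (ENSMUSG00000041688, X chromosome from 145446425 to 145505181, minus strand), the founding angiomotin, was at 57.6 and 64.5 CPM in the WT libraries and at 41.8 and 58.1 CPM in the Vil-CREPTKO libraries. The groups overlapped, replicate 1 of Vil-CREPTKO was the low library, and the log2 fold change was -0.29 (SE 0.17). Amot is X-linked, and the WT library with Xist had its highest value, but the part of sex in these values was not tested. Amotl2 (ENSMUSG00000032531, chromosome 9 from 102716672 to 102733418, plus strand), which is also a target gene of YAP, stood at 5.72 and 6.32 CPM in the WT libraries against 8.40 and 5.19 CPM in the Vil-CREPTKO libraries. Its libraries of Vil-CREPTKO lay on either side of WT (fitted log2 fold change 0.17, SE 0.26).

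The coactivators were unequal in amount and in spread. Yap1 (ENSMUSG00000053110, chromosome 9 from 7931999 to 8004596, minus strand) was at 88.9 and 97.8 CPM in the WT libraries and at 95.9 and 106 CPM in the Vil-CREPTKO libraries, so the groups overlapped (fitted log2 fold change 0.12, SE 0.12). Wwtr1, the gene for TAZ (ENSMUSG00000027803, chromosome 3 from 57455649 to 57575910, minus strand), was at 3.76 and 4.90 CPM in the WT libraries and at 1.38 and 3.48 CPM in the Vil-CREPTKO libraries. Both Vil-CREPTKO values were below WT, yet they differed from each other more than the WT values did, and the log2 fold change of -0.83 had an SE of 0.41. It was -0.32 without Vil-CREPTKO replicate 1 and -1.64 without replicate 2. Vil-CREPTKO replicate 1, with the low Wwtr1 value, was also the library with the highest villus enterocyte and fibroblast marker sums. Of these lists Apoa4, Lct and Pdgfrb were not highest in that library, while the other genes were. The part of these cell types in the Wwtr1 value was not tested.

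Neither LATS kinase gene was called, and both had overlapping groups. Lats1 (ENSMUSG00000040021, chromosome 10 from 7681214 to 7716460, plus strand) was at 98.0 and 99.7 CPM in the WT libraries and at 97.3 and 105 CPM in the Vil-CREPTKO libraries (fitted log2 fold change 0.031, SE 0.12). Lats2 (ENSMUSG00000021959, chromosome 14 from 57689662 to 57758388, minus strand), itself a YAP target gene, was at 4.05 and 4.59 CPM in the WT libraries and at 4.83 and 2.93 CPM in the Vil-CREPTKO libraries (fitted log2 fold change -0.16, SE 0.30). For both kinases the Vil-CREPTKO libraries lay on either side of the WT libraries, with the lower Lats2 value in replicate 2. Exons of Lats2 share 2955 bp with Gm49361 on the same strand, a gene with 0 counts in all 4 libraries.

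Among the TEAD genes, which encode the DNA-binding partners of YAP and TAZ, Tead3 was called lower. Tead3 (ENSMUSG00000002249, chromosome 17 from 28331671 to 28350817, minus strand) had 1574 counts (30.8 CPM) and 1468 counts (29.8 CPM) in WT. In Vil-CREPTKO it had 523 counts (12.03 CPM) in replicate 1 and 712 counts (14.5 CPM) in replicate 2. Both libraries lay far below WT, the group means were 30.3 ± 0.711 CPM and 13.3 ± 1.74 CPM (SD, n = 2), and Vil-CREPTKO kept 43.7% of the WT level (fitted log2 fold change -1.19, SE 0.15).

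Tead1 and Tead2 were not called. Tead1 (ENSMUSG00000055320, chromosome 7 from 112679318 to 112906807, plus strand) was at 26.5 and 22.4 CPM in the WT libraries and at 26.9 and 39.0 CPM in the Vil-CREPTKO libraries, so that replicate 1 of Vil-CREPTKO was just above the higher WT value and replicate 2 farther above (fitted log2 fold change 0.43, SE 0.19). Tead2 (ENSMUSG00000030796, chromosome 7 from 45215753 to 45233644, plus strand) was at 4.13 and 2.76 CPM in the WT libraries and at 2.81 and 4.34 CPM in the Vil-CREPTKO libraries, with overlapping groups (fitted log2 fold change 0.052, SE 0.32). Its exons overlap those of the leukocyte gene Cd37 on the other strand by 13 bp.

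**Figure D3:**
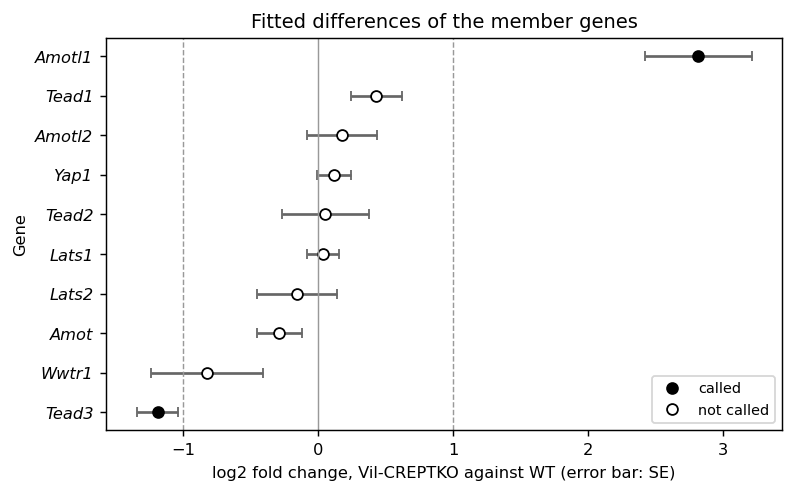
Fitted log2 fold change of each member, Vil-CREPTKO against WT, with its SE as error bar. Filled points were called, open points were not, and dashed lines mark the fold threshold of 1; Amotl1 at 2.82 and Tead3 at -1.19 lie outside it.

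Levels of different genes were compared per length, as CPM per kilobase of the union of a gene's exons. In WT the order was Lats1 (13.4 and 13.7), Yap1 (9.60 and 10.6), Amot (6.85 and 7.68), Tead3 (4.59 and 4.44) and Tead1 (1.95 and 1.65). Amotl2 (0.909 and 1.005), Wwtr1 (0.787 and 1.02), Tead2 (0.863 and 0.577) and Lats2 (0.582 and 0.659) followed, and Amotl1 came last (0.0428 and 0.0787). The top 5 did not overlap their neighbours in the order. Amotl2 with Wwtr1, Wwtr1 with Tead2, and Tead2 with Lats2 did overlap and were not told apart by the spread between WT libraries. In Vil-CREPTKO, Tead1 (1.98 and 2.87) and Tead3 (1.79 and 2.16) overlapped, while Amotl1 was still last at 0.361 and 0.496. With the length of the longest transcript in place of the exon union, Yap1 (17.7) stood above Lats1 (13.7) in the WT means, and Tead3 (8.81) level with Amot (8.77).

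Within each family 1 gene made up most of the RNA in WT. Amot was 87.8% and 87.6% of the summed angiomotin level per kilobase in the WT libraries, and 74.6% and 84.0% in Vil-CREPTKO. Amotl1 held 0.549% and 0.899% of that level in WT, against 5.42% and 6.02% after CREPT loss, so Amotl1 was a minor angiomotin in both groups. Yap1 was 91.2% to 97.3% of YAP and TAZ together, and Lats1 was 95.1% to 97.2% of the LATS pair, over all 4 libraries. Of the 4 families, the TEAD genes differed most in make-up between the groups. Tead3 was 62.0% and 66.6% of the TEAD level in WT and 41.1% and 36.4% in Vil-CREPTKO, where Tead1 reached 45.5% and 48.4% after 26.4% and 24.8% in WT. Which TEAD gene led in Vil-CREPTKO depended on the length used, since with the longest transcript Tead3 kept 49.8% and 44.8% and Tead1 had 38.4% and 41.6%. The summed TEAD level was 7.41 and 6.67 CPM per kilobase in WT and 4.36 and 5.94 in Vil-CREPTKO. This level and the TEAD shares cover Tead1, Tead2 and Tead3 only. Tead4, not a member, had 24 and 25 counts in WT and 8 and 43 in Vil-CREPTKO and was left out.

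**Figure D4:**
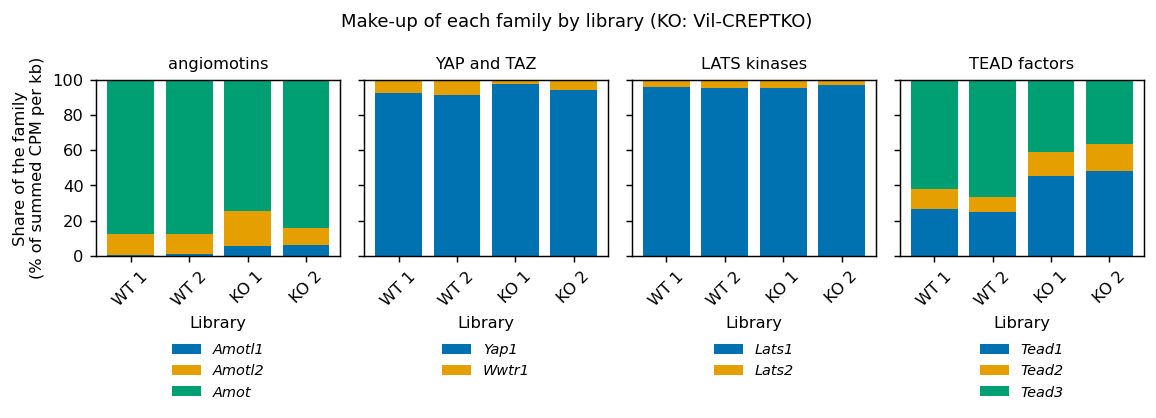
Share of each gene in the summed CPM per kilobase of its family, in percent, in the WT and Vil-CREPTKO (KO) libraries. Tead3 was 62.0% and 66.6% of the TEAD level in WT and 41.1% and 36.4% in Vil-CREPTKO, with Tead4 not counted in that level. Amotl1 was a small part of the angiomotins (5.42% and 6.02% in Vil-CREPTKO).

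The rest of the pathway was then read from 7 lists, to see whether other Hippo components or YAP target genes differed between the groups. The lists held 103 genes, of which 85 had enough counts to be tested. By edgeR's quasi-likelihood test, 0 of the 85 had an adjusted p under 0.05, against 2.71% of all genes tested. An unadjusted p under 0.05 was reached by 5 of them, Stk26, Strip2 and Crb3 on the lower side and Clu and Asap1 on the higher side. This was 5.88% of the 85, and 14.3% of all genes tested. With DESeq2, 81 of the pathway genes were tested and 2 had an adjusted p under 0.05, Strip2 lower and Clu higher. Over all genes DESeq2 also called more, 87 higher and 309 lower at the adjusted p and fold thresholds. The median log2 fold change of the 85 genes was 0.041, beside -0.0060 over all genes. Within 0.5 of zero lay 77 of the 85 (90.6%), beside 75.7% of all genes tested.

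No tested gene of the lists acting on the angiomotins or on the kinases passed the adjusted threshold. The 14 tested partners of angiomotins, such as the scaffold Pals1 and the NEDD4-type ubiquitin ligases, were centred on a log2 fold change of 0.096 (median) and ranged from -0.19 (Nedd4, adjusted p by edgeR = 0.677) to 0.32 (Pals1, adjusted p by edgeR = 0.455). Nedd4l was at 0.24 (SE 0.12, adjusted p by edgeR = 0.397). The 16 tested kinases and cofactors upstream of YAP had a median of -0.028. Map4k1, a kinase of blood cells, had the widest difference there (-0.40, SE 0.22, adjusted p by edgeR = 0.48), followed by Taok1 (0.20) and Taok2 (-0.15). Immune markers summed to 208 and 145 CPM in the WT libraries and 156 and 123 CPM in the Vil-CREPTKO libraries. Of this list Ptprc, Cd3e and Cd8a had lower means in Vil-CREPTKO, while Cd79a, Lyz2 and Cd68 had higher means. The part of immune cells in the Map4k1 value was not tested.

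Among the 17 tested membrane and polarity regulators the median was 0.076. Crb3, an apical polarity protein, was at 56.9 and 66.1 CPM in the WT libraries and at 50.04 and 47.3 CPM in the Vil-CREPTKO libraries (fitted log2 fold change -0.34, SE 0.13, adjusted p by edgeR = 0.251). Wwc2, a relative of the scaffold KIBRA, was at -0.63 (SE 0.34, adjusted p by edgeR = 0.472) and the LIM protein gene Wtip at 0.25 (SE 0.27). The STRIPAK complex, which brings a phosphatase to the upstream kinases, held the lowest adjusted p of the lists. Strip2, a subunit, was at 23.5 and 34.6 CPM in the WT libraries and at 18.1 and 16.7 CPM in the Vil-CREPTKO libraries (fitted log2 fold change -0.74, SE 0.19, adjusted p by edgeR = 0.0971). Stk26, a kinase of the complex, was at 3.43 and 3.13 CPM in the WT libraries and at 1.56 and 1.51 CPM in the Vil-CREPTKO libraries (fitted log2 fold change -1.09, SE 0.30, adjusted p by edgeR = 0.109). The groups did not overlap for either gene, which held for 46.7% of the 15 tested genes of this list and 45.1% of all genes tested. The median of the 15 was 0.0094 and the next in size, Mob4, was at 0.18. Of the remaining TEAD family and VGLL cofactor genes, Tead4 (0.13, SE 0.72) and Vgll4 (0.0096, SE 0.16) had enough counts, and Vgll1, Vgll2 and Vgll3 did not.

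**Figure D5:**
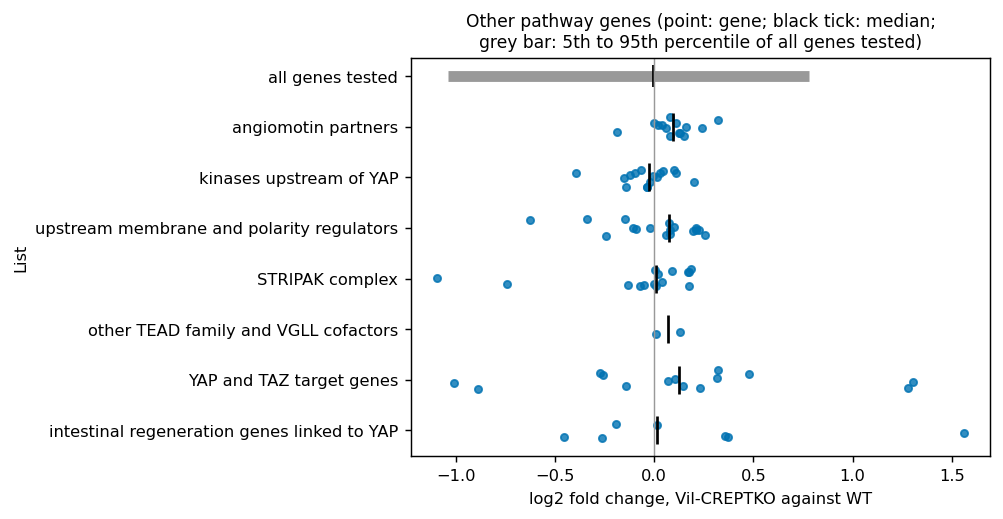
log2 fold change, Vil-CREPTKO against WT, of each tested gene in the 7 pathway lists (points, spread vertically at random within a list), with the median of each list as a black tick. The grey bar spans the 5th to 95th percentile of all genes tested, -1.04 to 0.78. Within 0.5 of zero lie 77 of the 85 pathway genes, beside 75.7% of all genes tested.

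The YAP and TAZ target genes had, over the 14 tested, a median of 0.13 in log2 fold change, with 9 positive and 5 negative. Ankrd1 had 0 counts in every library, and Ccn2 and Foxf2 had 1 count each over all 4, so these targets could not be read. Ccn1, a matricellular target, had 38 and 45 counts in WT and 40 and 45 in Vil-CREPTKO. The widest values came from genes with few counts. Axl, a receptor tyrosine kinase, had 35 and 31 counts in WT against 129 and 15 in Vil-CREPTKO (fitted log2 fold change 1.30, SE 0.83, adjusted p by edgeR = 0.551), and Ccdc80, a matrix protein, 12 and 16 against 50 and 11 (1.28, SE 0.79, adjusted p by edgeR = 0.538). In both genes replicate 1 of Vil-CREPTKO, the library with 18.5 CPM of fibroblast markers, was high and replicate 2 was below WT, and the part of fibroblast RNA was not tested. Arhgef17 was at -1.01 (SE 0.71, adjusted p by edgeR = 0.601) on 5 to 25 counts.

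Of 8 intestinal regeneration genes linked to YAP, 7 were tested, with a median of 0.017. Clu, which marks cells that rebuild damaged crypts, had 40 and 27 counts in WT and 73 and 111 in Vil-CREPTKO. The groups did not overlap, which held for 28.6% of the tested genes of this list and 45.1% of all genes tested. The log2 fold change of Clu, 1.56 (SE 0.41), had an adjusted p by edgeR of 0.0997. Il33, a cytokine of barrier tissues, was at 24.6 and 47.6 CPM in the WT libraries and at 34.3 and 18.5 CPM in the Vil-CREPTKO libraries (-0.45, SE 0.34, adjusted p by edgeR = 0.621). Areg, an EGF receptor ligand, was at 4.37 and 6.12 CPM against 6.07 and 7.49 CPM (0.37, SE 0.24, adjusted p by edgeR = 0.563).

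The position of the members was examined through the nearest tested gene on each side that did not overlap the member. Cd37, which overlaps Tead2, was therefore left out. Of these 20 neighbours 1 passed an adjusted p of 0.05, Trpm4 beside Tead2 (fitted log2 fold change -0.70, SE 0.14, adjusted p by edgeR = 0.0422), a share to set beside the 2.71% of all genes. Amotl1 lies between Cwc15, 31.4 kb away (0.17, adjusted p by edgeR = 0.573), and Piwil4, 51.2 kb away (-0.87, SE 0.53, adjusted p by edgeR = 0.532). Tead3 ends 638 bp from the end of Rpl10a on the other strand, and Rpl10a was at -0.049 (SE 0.18, adjusted p by edgeR = 0.942). On its other side Fkbp5, 48.3 kb away, was at 0.094 (SE 0.45).

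Genes with a pattern most like that of Amotl1 were sought among 12080 other genes, by the root mean square distance between log2 CPM profiles centred on their own mean over the 4 libraries. The nearest was Eda2r, a receptor of the TNF receptor family, at a distance of 0.18, with 63 and 80 counts in WT and 318 and 512 in Vil-CREPTKO. Phlda3, a protein with a pleckstrin homology domain, followed at 0.23 with 43 and 47 counts against 257 and 377. C87414 (0.32), Zfp532 (0.46) and A2ml1 (0.47) completed the 5. Like Amotl1, each of the 5 had both Vil-CREPTKO libraries above both WT libraries, as the measure selects for.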

How the data were processed

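Total RNA of EDTA-released crypts was sequenced from 2 WT and 2 Vil-CREPTKO mice. The authors deposited whole-number read counts per Ensembl gene, made with Bowtie2 and RSEM on GRCm38.p6 per the study's methods (CASAVA 1.8 in the submitters' notes); versions of Bowtie2 and RSEM, strand setting and rounding are not given in the sources used here. Of the identifiers, 99.1% matched GENCODE M21, the source of symbols, coordinates and lengths. Counts were filtered (filterByExpr, 17504 genes), scaled by TMM and fitted with the group as the only term by edgeR 4.0.16 (glmQLFTest, two-sided, R 4.3.3), with Benjamini-Hochberg adjustment over all genes tested. SE is the absolute log2 fold change divided by the square root of F. Replicates of a group differed far beyond counting noise (chi-square per gene 49.8 and 70.1), so each library counted once; at 2 libraries a group, their spread (biological coefficient of variation 0.188) limits the precision of well-counted genes more than depth does. The fit was tested on simulated data. Members and lists were chosen with earlier results of these data known. Named genes were the members, Rprd1b, the 3 list genes with the largest absolute log2 fold change per list, those past an adjusted p of 0.05 and the 5 genes most like Amotl1 (protein-coding or unclassified, average log2 CPM of at least 0, prior count 2); Ccn1, Ccn2, Ankrd1, Foxf2, Asap1, the VGLL genes and the neighbours were named after their values were seen. Alternatives were DESeq2 1.42.0, other scalings, other filters, a replicate term, leaving out each library, no fold threshold, other gene lengths and, added after seeing the data, a loess correction (span 0.5) for GC content and length.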

Additional observations from a re-analysis of the deposited data

How the results depend on the processing

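Amotl1 and Tead3, whose call rests on the contrast that chose the members and is no independent test, met its thresholds in the primary analysis and under each of DESeq2, the other scalings, the other filters, the replicate block, the leave-one-out fits and the GC and length correction. Their log2 fold changes ran from 2.44 to 3.32 and from -1.33 to -1.07. Leaving out 1 library gave 2.44 to 3.32 for Amotl1, with the highest value without WT replicate 2, the library with 42463 Xist counts. The other members kept their sign in these settings apart from 7 values: Amotl2 without Vil-CREPTKO replicate 1, Lats1 with library-size scaling and without Vil-CREPTKO replicate 2, Lats2 without Vil-CREPTKO replicate 2, and Tead2 with library-size scaling and without replicate 2 of either group. Wwtr1 was at -1.64 without Vil-CREPTKO replicate 2 and at -0.32 without replicate 1. Library-size scaling moved the median of all genes from -0.0060 to -0.098.

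Against 52 genes called higher and 235 lower, DESeq2 called 87 higher, library-size scaling called 379 lower, no filter on low counts called 163 higher and 450 lower, and dropping the fold threshold gave 400 lower. Without 1 library the counts were 42 to 97 higher and 179 to 262 lower. For the pathway lists, against 0 higher and 0 lower, DESeq2 gave 1 higher and 1 lower, library-size scaling 1 lower, and no filter 1 higher and 2 lower, and leaving out 1 library gave 0 to 1 higher (Nt5e without Vil-CREPTKO replicate 2) and 0 to 1 lower (Strip2 without WT replicate 1). The pathway genes tested numbered 85 in the primary analysis and with library-size scaling, 81 with DESeq2 and 98 with no filter. The causes of these differences were not tested. The replicate block gave 67 higher and 269 lower, 0 pathway genes and 2.85 for Amotl1. The replicate numbers pair no animals in the labels, and the differences between replicates 1 and 2 in WT and in Vil-CREPTKO had a correlation of 0.028 across genes. With 22 and 39 counts in WT, the size of the Amotl1 change rests on few reads.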
